A study of Homo sapiens with 4 samples.

Results

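The replication-dependent histone genes encode the linker histone H1 and the core histones H2A, H2B, H3 and H4 that package newly made DNA. They were chosen by their symbols alone, H1-1 to H1-5 and every symbol made of H2AC, H2BC, H3C or H4C and a number. Of 68 such symbols in the RefSeq gene table, 65 had a row in the deposited tables, out of 26295 genes in all, and H4C14, H2AC19 and H3C15 were not analysed here. The 65 were 5 genes of H1, 16 of H2A, 18 of H2B, 12 of H3 and 14 of H4.

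The libraries came from DU-145, an established line of human prostate cancer, and held RNA recovered from streptavidin beads. In the biotin group (2 libraries), cells had been transfected with a mix of miR-26a duplexes that carried a 3′ biotin and a thiouridine at nucleotide 7 or nucleotide 17. The control group (2 libraries) had received a miR-26a duplex for which the labels name neither biotin nor thiouridine. Both were given 60 nM duplex at 24 h after seeding and 365 nm light at 2 J/cm2, and total RNA was left on the beads for 4 h, so every library measured RNA from cells with added miR-26a. The parts of biotin and thiouridine cannot be told apart, since both are named for the same group. The RNA input is given in µg in 1 label and in mg in another, and its amount is therefore not stated here. The amount of a transcript in the cells and its retention on the beads cannot be told apart in these libraries either.

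Replication-dependent histone genes sit in clusters, have almost no introns and are transcribed mainly in S phase. Their mRNAs are the best known metazoan mRNAs without a poly(A) tail. The 3′ end is instead made by a cut just after a conserved stem-loop. SLBP binds the stem-loop and the U7 snRNP positions the cut. The same stem-loop serves translation and rapid decay when DNA synthesis stops. A few of these genes also give longer, spliced and polyadenylated transcripts.

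The stem-loop was found by its letters, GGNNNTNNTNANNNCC on the transcribed strand with a stem that pairs, in 29 of the 31 deposited histone rows whose 3′ end had sequence in GENCODE 29. It lay within the last 100 bases in 28 of those 31 rows, against 21 of 83050 other protein-coding transcripts (0.0253%). None was found in the rows of H4C15 and of H1-4, the lone H1 gene whose end was searched. The forms below are shown because most searched members end in one and because those of H4 were found in no other class. Capitals mark the 16 bases of the stem-loop and lower case the 5 bases on either side, 5′ to 3′.

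H4C2, at chr6:26026901-26026916 (hg38, minus strand): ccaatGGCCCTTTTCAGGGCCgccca

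H2AC13, at chr6:27808647-27808662 (plus strand): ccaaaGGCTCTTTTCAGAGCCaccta

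H2BC4, at chr6:26123472-26123487 (minus strand): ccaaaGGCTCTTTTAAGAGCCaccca

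H2AC15, at chr6:27837885-27837900 (minus strand): aaaaaGGTTCTTTTCAGAGCCaccta

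H2AC11, at chr6:27133515-27133530 (plus strand): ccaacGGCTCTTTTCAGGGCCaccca

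The form of H2AC13 was the commonest and was present in 16 genes, 6 of H2A, 8 of H2B and 2 of H3. The form of H4C2 was found in 5 genes, all of H4. The form of H2BC4 was found in 3 genes of H2B and 1 of H3, and those of H2AC15 and H2AC11 in 1 gene each. GENCODE 29 held only coding sequence for many members, among them H2AC17, H3C11 and H3C12, so the ends of those mRNAs were not searched.

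The transfected miRNA is shown next, because the design asks which RNAs a tagged copy of it brings down. Its seed, bases 2 to 8, is in capitals, and the RefSeq table places the same mature sequence at chr3:37969413-37969434 (plus strand, MIR26A1) and chr12:57824658-57824679 (minus strand, MIR26A2) of GRCh38.p14.

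hsa-miR-26a-5p: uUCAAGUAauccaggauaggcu

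The complement of that seed, TACTTGA, was present in 1 of the 63 member rows with sequence, that of H2AC25, over 92.4% of the bases of their single-exon rows. A match is a description only, and no match says only that these letters are not in the searched stretch.

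Levels below are FPKM, which scales the fragments of a transcript to its length in kilobases and to the mapped fragments of the library, here summed over the rows of each gene. Depth was estimated at 16030000 to 23640000 mapped reads per library, at which 3 reads on a transcript of 1 kb correspond to 0.127 to 0.187 FPKM, a floor for counting error only. Across tested genes, Pearson's r was 0.972 between the controls, 0.970 between the biotin libraries and 0.876 to 0.883 across the groups, where genes are not independent replicates. Summed FPKM over all rows was 769237 to 890754 in control and 406200 to 452147 in biotin libraries. Of the epithelial markers of the line, 9 of 9 passed the filter, with KRT7 at 60.2 to 84.1 FPKM, and KLK3, KLK2 and FOLH1 were listed at 0 in all 4 libraries. Of 10 markers of blood, fibroblasts and endothelium, 1 passed (CD14, at most 2.57 FPKM), PTPRC, CD3E and HBB were listed at 0, and the list summed to 0.578 to 0.823 FPKM in control and 1.50 to 3.04 in biotin libraries. The part of those cells in the results was not tested.

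A property of the deposited values bears on every histone level below. Each row carries a confidence interval from Cufflinks, and in 22.3 to 24.1% of the rows above 0 the FPKM lay outside its own interval (by more than 0.1%). For 45 of 50 tested histone genes the FPKM exceeded the midpoint of the interval by over 1.1 times on average over the libraries, and for H2A and H3 genes usually by far more. The ratio of FPKM to midpoint had a median of 9.61 for H2A, 8.45 for H3, 3.53 for H4, 2.69 for H2B and 2.68 for H1, and it ran from 0.852 to 17.2 over all tested members and libraries. The step that set the FPKM apart from the interval is not given in the sources used here. Fold changes were therefore also computed from the midpoints, an alternative chosen after seeing the data. Orders of levels and of fold changes below are in FPKM unless midpoints are named.

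Histone genes of every class were lower in the biotin libraries. In all, 44 of the 50 tested genes fell (88.0%), 1 rose and 5 did not pass the threshold, by limma on log2(FPKM + 1) at a Benjamini-Hochberg adjusted p of 0.05 over 9939 tested genes. In the same fit 9.34% of all tested genes were lower (928) and 13.2% higher (1307). With upper-quartile scaling 1386 genes were lower and 1227 higher, and 44 members were lower as before. The median log2 fold change of the tested members was -1.67 (range -2.93 to 1.26), beside -0.06 over all tested genes. In 46 of the 50 both biotin libraries lay below both controls, against 37.7% of all tested genes, and in 2 both lay above, against 29.4%. All 50 had passed the filter of at least 1 FPKM in at least 2 libraries in both groups.

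With a library left out, fewer members were called lower, while their median fold change moved little. The count was 10 without control replicate 1 (median -1.74, beside 0.322% of all tested genes called lower), 16 without control replicate 2 (-1.64, 0.473%), 33 without biotin replicate 1 (-1.64, 2.21%) and 35 without biotin replicate 2 (-1.58, 1.53%). The fits without a library leave a group with a lone library that is assumed to vary like the others. The calls of 9 genes were kept in all 4 such fits: H1-4, H2AC12, H2BC10, H2BC17, H4C1, H4C3, H4C11, H4C12 and H4C13. Those of 8 genes were kept in none of them: H1-3, H2AC13, H2BC6, H2BC7, H2BC12, H2BC18, H2BC26 and H3C2. With interval midpoints in place of FPKM, 45 of 50 members were lower (12.6% of all tested genes) and none was higher (14.8% of all tested genes), although 2 members had an unadjusted limma p below 0.05 in that direction. A total of 43 genes were called lower on both scales.

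**Figure D1:**
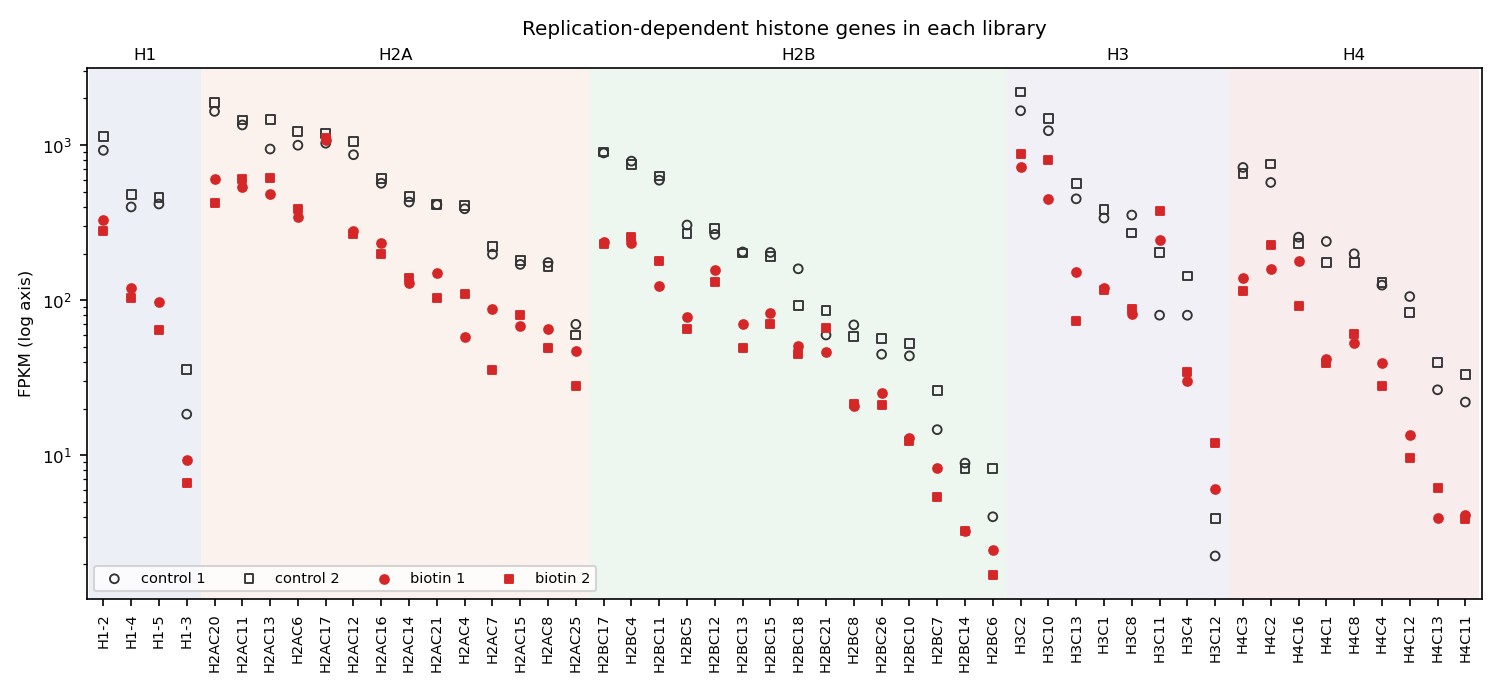
FPKM (log axis) of the 50 tested histone genes in each library, grouped by class and ordered by control mean. Open black symbols are the 2 control libraries and filled red symbols the 2 biotin libraries; the red symbols lie below the black ones in 46 genes and above them in H3C11 and H3C12, and they overlap in H2AC17 and H2BC21.

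Each class sum was lower in both biotin libraries than in both controls. The 16 H2A genes summed to 9257 and 10804 FPKM in the control and 4175 and 4150 in the biotin libraries, or 41.5% of control. H3 summed to 4215 and 5259 against 1812 and 2373 FPKM, or 44.2%. H2B summed to 3661 and 3635 against 1158 and 1161 FPKM, or 31.8%. The control and biotin sums of these classes did not overlap. H4 summed to 2268 and 2284 against 635 and 583 FPKM, or 26.8%. H1 summed to 1762 and 2118 against 556 and 455 FPKM, or 26.05%. No test was made of these sums, since 2 against 2 libraries cannot go below an exact two-sided p of 0.333.

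The order of the classes depended on which deposited value was used. In FPKM, H2A had a control mean of 10031 and H2B of 3648. In midpoint sums H2A was 1131 and 1390 and H2B 1186 and 1198 in the controls, which overlap. The midpoint sums of the biotin group were 27.2% of control for H1, 33.4% for H2A, 31.9% for H2B, 34.1% for H3 and 28.7% for H4, a narrower span than in FPKM.

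**Figure D2:**
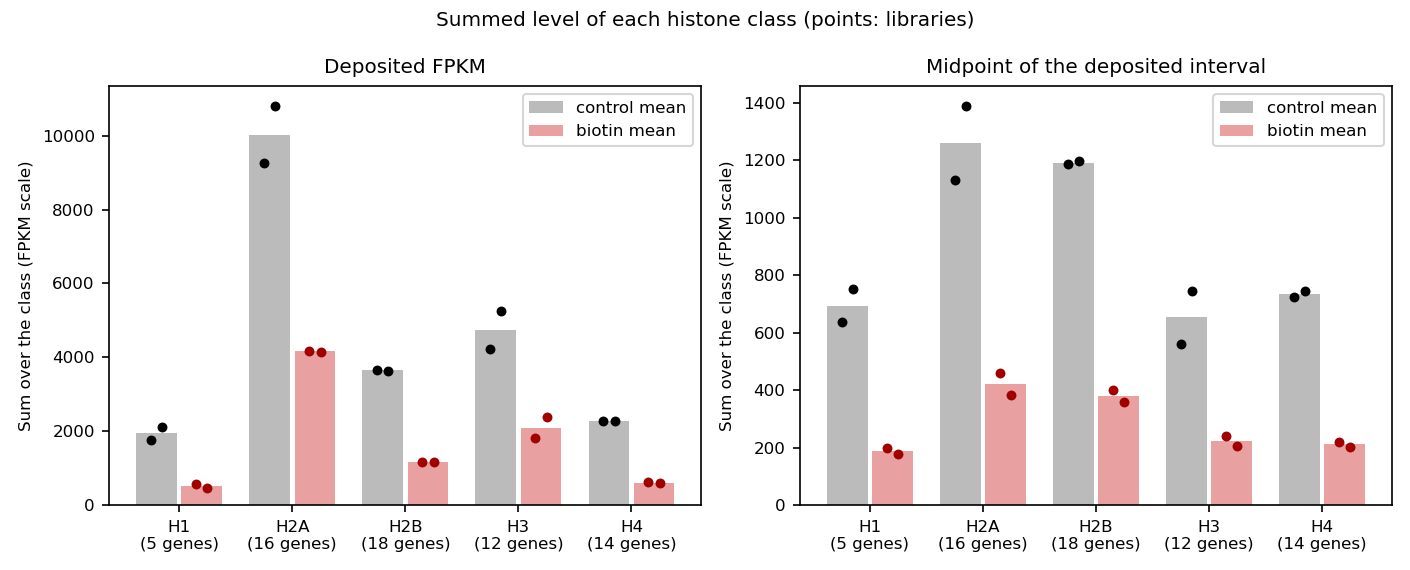
Sum over the genes of each class in deposited FPKM (left) and in midpoints of the deposited intervals (right), with bars for group means and points for libraries. Biotin sums are below control sums in every class on both scales, while H2A stands apart from the other classes in FPKM only.

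The core histone H4, which pairs with H3 in the nucleosome, had the lowest median fold change in FPKM, -2.32 over 9 tested genes, of which 8 fell. From midpoints the median was -1.77 for H4 and -1.84 for H1, which was then the lowest. H4C12 (chr6:27831174-27831527, a single exon of 354 nt) read 105.7 and 83.5 FPKM in control and 13.6 and 9.57 in biotin libraries. Its biotin values were far below both controls, with a log2 fold change of -2.93 ± 0.24 (SE, limma adjusted p = 0.00115). H4C12 shares all of its 50-base windows with other transcripts, mainly H4C11, so reads of these genes could have been assigned to either. H4C11 read 22.1 and 33.1 against 4.11 and 3.92 FPKM, with no overlap (-2.48 ± 0.22, limma adjusted p = 0.0015). H4C13 read 26.5 and 39.6 against 3.97 and 6.12 FPKM (-2.49 ± 0.27). On the midpoint scale these 3 genes fell less, by 2.41, 1.63 and 2.01.

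H4C3 had the highest level of the class in control replicate 1, 719 FPKM, and read 655 in control replicate 2, 140 in biotin replicate 1 and 114 in biotin replicate 2. Its groups were well apart (-2.43 ± 0.21, limma adjusted p = 0.00134). H4C1 read 240 and 176 against 41.7 and 39.1 FPKM (-2.32 ± 0.22). H4C2 (-1.79), H4C4 (-1.91) and H4C8 (-1.70) fell as well. H4C16, the lone member on chromosome 12, read 255 and 233 against 180 and 92.4 FPKM, and its biotin libraries differed from each other by more than its controls did. Its log2 fold change of -0.91 ± 0.33 did not pass (limma adjusted p = 0.0942). It passed without biotin replicate 1 (-1.39, limma adjusted p = 0.0378) and from midpoints (-0.99, limma adjusted p = 0.0197), but was -0.43 without biotin replicate 2 (limma adjusted p = 0.306). The H4 genes differ mostly in silent bases: 13 of 14 coding sequences encode the same protein of 103 residues, at a median identity of 83.7% between coding sequences.

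H1, the linker histone that binds DNA between nucleosomes, had 4 tested genes and all 4 fell (median -1.86). H1-2, the highest, read 926 and 1138 FPKM in the controls against 328 and 280 in the biotin libraries. The groups did not overlap, and the log2 fold change was -1.76 ± 0.21 (limma adjusted p = 0.00423). H1-5 read 418 and 463 against 97.6 and 64.7 FPKM, the largest change of the class at -2.45 ± 0.25 (limma adjusted p = 0.00251). H1-4 read 400 and 482 against 121 and 104 FPKM (-1.96 ± 0.21). H1-3 was much lower, 18.4 and 35.6 against 9.33 and 6.64 FPKM (-1.59 ± 0.33), and its controls differed more in ratio than those of the other tested H1 genes. H1-1 had a value in 1 library only, 0.254 FPKM in biotin replicate 1, and was not tested. The 5 H1 genes each encode a different protein. Distinct proteins numbered 11 from 16 H2A genes, 14 from 18 of H2B, 2 from 12 of H3 and 2 from 14 of H4.

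H2A, which pairs with H2B in the nucleosome, had 14 tested genes, and 12 fell (median -1.58). H2AC20 (chr1:149886975-149887411) was the highest, with 1651 and 1873 FPKM in the controls against 609 and 422 in the biotin libraries. Both biotin values were far below the lower control, and the log2 fold change was -1.79 ± 0.24 (limma adjusted p = 0.00594). H2AC4 read 389 and 410 against 57.9 and 110 FPKM and had the largest change of the class (-2.31 ± 0.32). H2AC12 read 868 and 1059 against 278 and 267 FPKM, with closely matched biotin libraries (-1.81 ± 0.20).

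The other H2A genes that fell did so by 1.11 to 1.88 on the log2 scale. They were H2AC7 (-1.88), H2AC14 and H2AC21 (both -1.72), H2AC6 (-1.60), H2AC8 (-1.56), H2AC16 (-1.44), H2AC11 (-1.29), H2AC15 (-1.23) and H2AC13 (-1.11). H2AC7 shows how levels depend on the value used, since its FPKM is close to its midpoint. In control replicate 1 it read 198 FPKM against 1651 for H2AC20, while the midpoints were 199 and 162. H2AC25, the member with the seed match, read 70.0 and 59.7 against 47.4 and 27.9 FPKM without overlap (-0.81 ± 0.28, limma adjusted p = 0.0850). It passed from midpoints (-0.82, limma adjusted p = 0.0198), but was -0.44 without biotin replicate 2 (limma adjusted p = 0.292). Without that library H2AC7 was -1.24.

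H2B had 15 tested genes, and 14 fell (median -1.42). H2BC17 read 892 and 904 FPKM in control and 239 and 232 in biotin libraries, with closely matched replicates. The log2 fold change was -1.93 ± 0.19 (limma adjusted p = 0.00205). H2BC11 read 595 and 633 against 124 and 180 FPKM, the largest change of the class in FPKM (-2.03 ± 0.24). From midpoints its change (-1.988) was within the error of that of H2BC5 (-1.998). H2BC4 read 789 and 754 against 235 and 255 FPKM (-1.65 ± 0.19). Further genes fell at very different levels, from H2BC5 (-1.998), H2BC10 (-1.85), H2BC13 (-1.77), H2BC8 (-1.55) and H2BC15 (-1.36) to H2BC18 (-1.32), H2BC7 (-1.42), H2BC14 (-1.17), H2BC26 (-1.09) and H2BC6 (-1.15). H2BC6, at 4.02 and 8.22 against 2.47 and 1.70 FPKM, no longer passed from midpoints (-0.75, limma adjusted p = 0.0765) or without control replicate 2 (-0.71, limma adjusted p = 0.131).

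Among tested H2B genes, H2BC21 and H2BC12, which have long deposited rows, had the smallest changes in FPKM. H2BC26, with a row of 452 nt, came next (-1.09). The row of H2BC21 is 2223 nt long and runs 1728 bases past the stem-loop of the gene. That row, the only one of the gene, cannot tell mRNA that ends at the stem-loop from longer mRNA. It read 59.8 and 85.8 FPKM in the controls against 46.4 and 66.6 in the biotin libraries, which overlap (-0.36 ± 0.27, limma adjusted p = 0.371). With a library left out its change ran from -0.62 to -0.10. The spliced row of H2BC12 (839 nt) read 266 and 290 against 158 and 132 FPKM, without overlap (-0.94 ± 0.20, limma adjusted p = 0.0247). H2BC5 had 2 rows. Its single-exon row of 487 nt read 306 and 271 against 72.3 and 60.2 FPKM, a log2 fold change of -2.11. Its spliced row of 813 nt was listed at 0 in both controls and read 5.45 and 5.14 FPKM in the biotin libraries, so no fold is given. That row passed the filter only through the biotin group, so no test of it is given. In the fit of single rows, where 1.18% of all rows were lower and 2.80% higher, the single-exon row of H2BC5 was lower (limma adjusted p = 0.0303). No histone row was called in that fit with the replicate number as a block or with any library left out (limma unadjusted p below 0.05 for 43 and for 36 to 41 lower rows). The spliced row of H2BC18 (999 nt) was listed at 0 in all 4 libraries. Strand, annotation and the sharing of reads between such rows by Cufflinks were not tested.

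H3 had 8 tested genes, of which 6 fell and 1 rose (median -1.43). H3C2 (chr6:26031589-26032060), the highest member of all in the controls by FPKM, read 1669 and 2204 FPKM there and 729 and 875 in the biotin libraries. By midpoint it was not the highest, at 188 and 244 in the controls against 351 and 377 for H1-2. The groups did not overlap (-1.26 ± 0.23, limma adjusted p = 0.0150), and from midpoints the change was -1.67. H3C10 read 1240 and 1486 against 450 and 800 FPKM, with a wide gap between the biotin libraries (-1.18 ± 0.31, limma adjusted p = 0.0414). Without biotin replicate 1 its change was -0.76 (limma adjusted p = 0.165). Its ratio of FPKM to midpoint was 8.27 to 8.97 in 3 libraries and 17.2 in biotin replicate 2, and from midpoints it fell by 1.73. H3C13 on chromosome 1 read 451 and 564 against 153 and 73.7 FPKM (-2.24 ± 0.36), the largest fall of the class. H3C8 (-1.87) and H3C1 (-1.60) fell too. H3C4 (-1.69) did so with a spliced row of 921 nt that covers the locus of H2AC7, and reads of those overlapping genes cannot be told apart here.

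**Figure D3:**
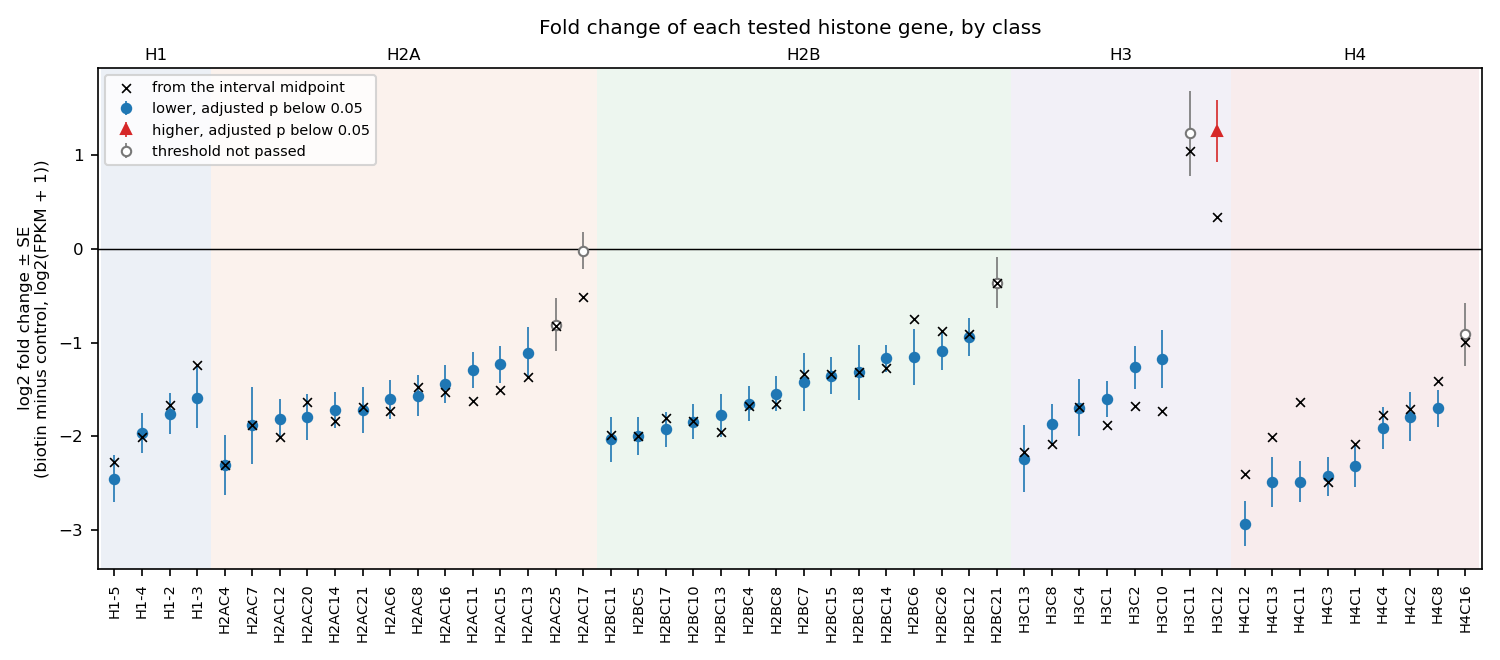
Log2 fold change (biotin minus control, log2(FPKM + 1)) with its standard error for the 50 tested histone genes, ordered within each class; filled circles fell, the triangle rose, and open circles did not pass. Crosses give the change from interval midpoints, where H2AC17 moved from -0.02 to -0.51 and H3C12 from 1.26 to 0.34.

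H3C11, H3C12 and H2AC17 went against the rest in FPKM. They lie close together on the minus strand, at chr6:27871845-27872321, chr6:27890315-27890792 and chr6:27892699-27893185 (hg38). H3C11 read 80.2 and 202 FPKM in control and 243 and 374 in biotin libraries. Its biotin values were above both controls, but the controls differed by more than the biotin libraries in ratio (1.24 ± 0.45, limma adjusted p = 0.0972). Its change was 0.57 without control replicate 1 (limma adjusted p = 0.314) and 1.90 without control replicate 2 (limma adjusted p = 0.0689). From midpoints it read 13.2 and 27.9 against 41.9 and 39.8 (1.05 ± 0.32, limma adjusted p = 0.0505).

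H3C12 was low, 2.25 and 3.90 FPKM in the controls against 6.06 and 11.98 in the biotin libraries. It was the lone member that rose (1.26 ± 0.33, limma adjusted p = 0.0417). That call held without biotin replicate 1 (1.70, limma adjusted p = 0.0378) and was lost without biotin replicate 2 (0.82, limma adjusted p = 0.155), control replicate 1 (0.97, limma adjusted p = 0.205) or control replicate 2 (1.56, limma adjusted p = 0.112). From midpoints H3C12 read 0.818 and 1.02 against 1.44 and 1.41, and did not pass (0.34 ± 0.14, limma adjusted p = 0.120).

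H2AC17 read 1029 and 1194 FPKM in control and 1080 and 1110 in biotin libraries, the latter inside the span of the former (-0.02 ± 0.19, limma adjusted p = 0.956). With a library left out its change ran from -0.12 to 0.09. Its ratio of FPKM to midpoint was 11.0 to 11.5 in the controls and 15.3 to 16.5 in the biotin libraries. From midpoints it read 89.2 and 109 against 70.7 and 67.1, with both biotin libraries below both controls (-0.51 ± 0.18, limma adjusted p = 0.0740). Quantile normalization turned its direction (0.81, limma adjusted p = 0.0266). These 3 genes shared few 50-base windows with other transcripts, 0% for H3C11 and H3C12 and 8.14% for H2AC17.

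Their neighbours fell. H4C13, which lies between H3C11 and H3C12, had a log2 fold change of -2.49, H1-5 on the other side of H3C11 of -2.45, and H2BC17, whose start lies 240 bases from that of H2AC17, of -1.93. The stretch of 239 bases between these last 2 start sites is shown because its genes differed most among the pairs. It lies at chr6:27893186-27893424 of GRCh38.p14 and is printed on the plus strand from the RefSeq promoter table, so that H2AC17 starts to its left and H2BC17 to its right. Capitals mark matches, on either strand, to the octamer ATTTGCAT, the TATA box TATAAA and the CCAAT box CCAAT.

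H2AC17 and H2BC17: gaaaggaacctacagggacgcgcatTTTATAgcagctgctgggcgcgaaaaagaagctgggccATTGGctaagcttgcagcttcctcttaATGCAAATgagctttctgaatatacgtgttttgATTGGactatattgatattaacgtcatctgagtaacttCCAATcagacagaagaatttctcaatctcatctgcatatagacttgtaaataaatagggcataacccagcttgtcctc

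The octamer, bound by OCT1, was found in 42.2% of 64 promoter entries of 60 members (250 bases before to 50 after the start), against 1.77% of 35116 entries of all genes. It was present in 73.3% of H2A and 75% of H2B entries, in 1 of 12 of H3 and in none of H1 or H4. TATAAA was found in 67.2% of member entries against 11.5% of all. CCAAT was found in 85.9% against 34.6%, in every entry of H1, H2A, H2B and H3 but in 25% of those of H4. A match is no evidence of binding.

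There were 12 divergent pairs of an H2A and an H2B gene with start sites under 500 bases apart, and 11 had both genes tested. Both genes fell in 8 of the 11. The fold changes within a pair were close for H2BC8 and H2AC8 (-1.55 and -1.56) and for H2BC4 and H2AC6 (-1.65 and -1.60). They were furthest apart for H2AC17 and H2BC17 (-0.02 and -1.93), followed by H2BC21 and H2AC20 (-0.36 and -1.79), of which the H2BC21 row is the long one described above, and by H2BC12 and H2AC12 (-0.94 and -1.81). The differences between the genes of a pair were not tested.

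Along the chromosomes, all 22 tested genes of the proximal group on chromosome 6 fell (median -1.73), from H3C1 to H4C8. Of the 20 tested in the distal group, 17 fell and 1 rose (median -1.40). In the HIST2 group on chromosome 1, 4 of 5 fell (median -1.72), and in the HIST3 group 1 of 2 fell, H2BC26 at -1.09 beside H2AC25 at -0.81. Summed FPKM of the biotin group was 30.9% of control in the proximal group, 45.4% in the distal group, 29.8% in HIST2 and 52.7% in HIST3, and 55.8% for H4C16. The differences between groups of genes were not tested, and members are not replicates of a condition.

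**Figure D4:**
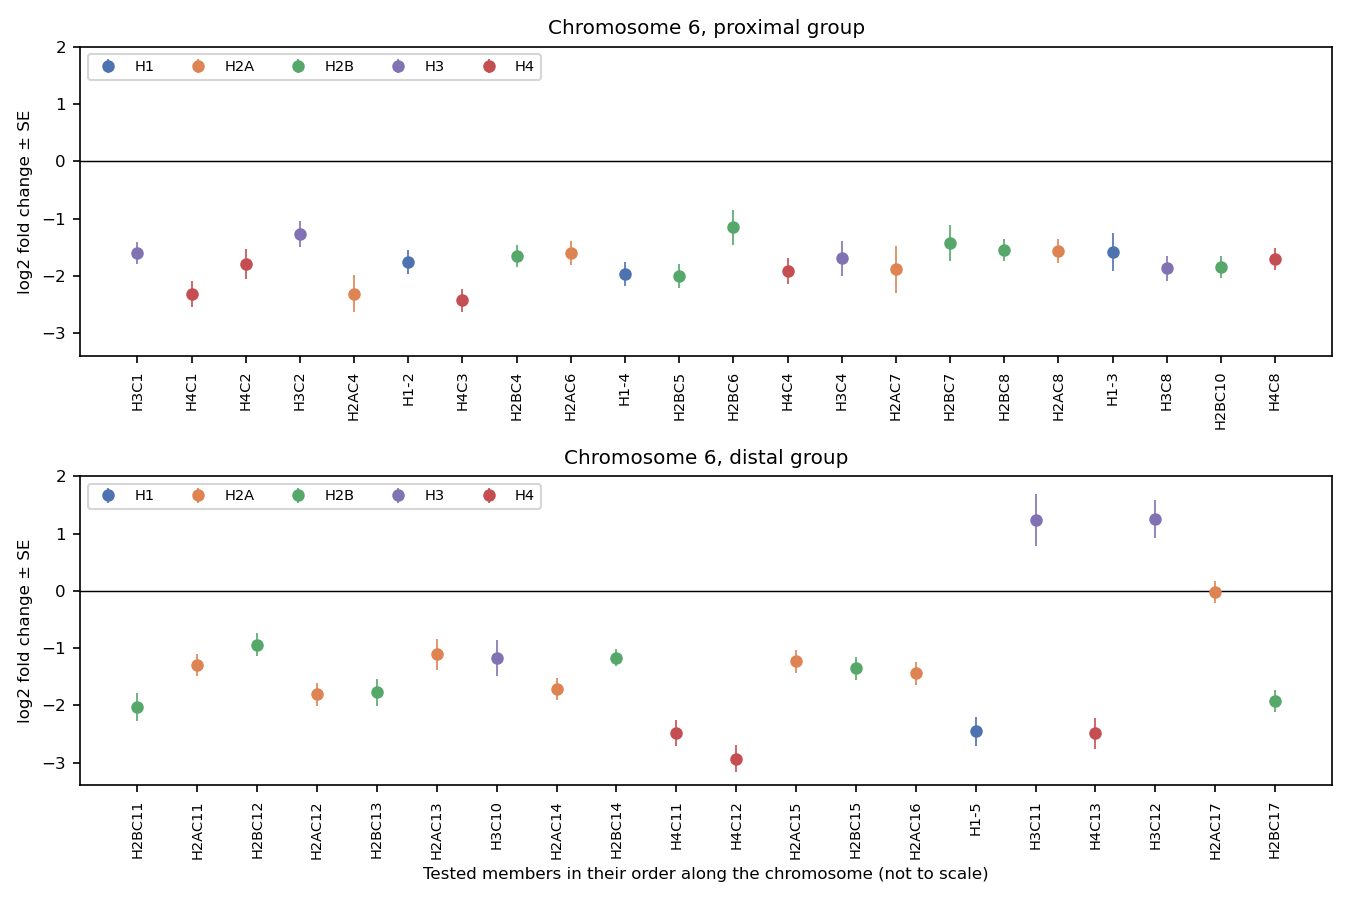
Log2 fold change with its standard error for the tested members of chromosome 6 in their order along the chromosome (not to scale), coloured by class. All 22 genes of the proximal group lie below 0, and in the distal group H3C11 and H3C12 lie above 0 and H2AC17 at 0, beside H4C13 and H2BC17 that fell.

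Of the 15 members that were not tested, 11 were listed at 0 in all 4 libraries: H2AC1, H2AC18, H2BC1, H3C3, H3C6, H3C7, H3C14, H4C5, H4C6, H4C7 and H4C15. The rows of H2AC18, H3C14 and H4C15 are shared in all their 50-base windows with a near-identical copy, and the other 8 share none. A 0 in these tables can be a failed estimate and is not read as absence. The remaining 4 were low: H1-1, H2BC3 (at most 0.191 FPKM), H2BC9 (at most 0.690 FPKM) and H4C9, which read 0.837 and 0.931 against 0.373 and 0.779 FPKM.

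Members were also counted by the share of their 50-base windows found in other transcripts, beside 9.34% lower among all tested genes. Of 20 tested genes with no 50-base window elsewhere, 17 fell, as did 19 of 22 with up to 35% and 6 of 6 with more. The 2 spliced genes without a value both fell. For many members only coding sequence was searched, and the part of shared sequence in the result was not tested.

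Short transcripts of other genes were lower too, and this stands beside every count above and below. Among tested genes other than members, 40.8% of 157 with a main transcript of 300 to 600 nt were lower (median -0.63), 24.7% of 619 with 600 to 1000 nt (median -0.41), 13.2% of 2167 with 1000 to 2000 nt (median -0.17) and 5.46% of 6938 with longer ones (median -0.01). Higher calls ran the other way, at 7.01%, 7.43%, 11.3% and 14.5% of the same 4 length ranges. Of 110 others with 300 to 1000 nt and a control mean between the quartiles of the members, 98.9 to 653 FPKM, 52.7% were lower (median -0.84). The members (88.0% lower, median -1.67) were mostly 354 to 564 nt long. The part of transcript length in the result was not tested.

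**Figure D5:**
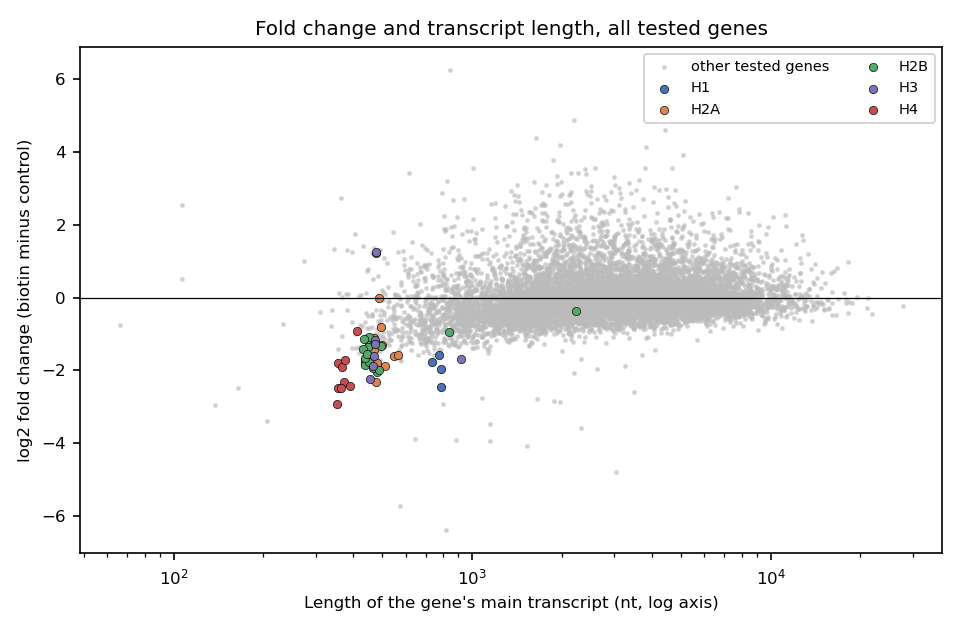
Log2 fold change (biotin minus control) against the length of the main transcript (log axis) for 9939 tested genes, with the 50 histone genes in colour by class. Most members lie between -1 and -3, and the longest member row, that of H2BC21 at 2223 nt, lies at -0.36. The next longest, H3C4 at 921 nt and H2BC12 at 839 nt, lie at -1.69 and -0.94.

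The genes that act on histone genes and their mRNAs were described by lists. Their counts stand beside 9.34% lower and 13.2% higher among all tested genes. Of 9 tested genes of histone transcription, 1 fell (median 0.02): CDK2, the kinase that acts with cyclin E, from 14.5 and 17.5 to 9.42 and 9.88 FPKM (-0.67 ± 0.17, limma adjusted p = 0.0401). NPAT, the coactivator of histone genes that this kinase phosphorylates, read 3.42 and 3.65 against 2.62 and 3.34 FPKM (-0.19, limma adjusted p = 0.395).

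Of 18 genes of 3′ end processing, 4 fell and 1 rose (median -0.20). SNRPG, a core Sm protein of snRNPs, fell the most, from 13.1 and 7.42 to 1.78 and 2.79 FPKM (-1.75 ± 0.28, limma adjusted p = 0.0106). LSM10, an Sm-like protein of the U7 snRNP, read 6.41 and 4.59 against 2.83 and 2.80 FPKM (-0.75 ± 0.18, limma adjusted p = 0.0311). COIL, the scaffold of Cajal bodies (-0.67), and the Sm protein SNRPE (-0.64) fell as well, and CPSF2, a subunit of the cleavage complex, rose (0.69). SLBP, which binds the stem-loop, read 12.2 and 16.3 against 9.73 and 8.68 FPKM and did not pass (-0.57 ± 0.19, limma adjusted p = 0.0814), nor did LSM11, the other U7-specific protein (0.22).

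Of 18 genes of histone mRNA export, translation and decay, 2 fell and 1 rose (median -0.11). LSM6, of the ring that binds oligouridylated mRNA ends, fell (-0.96). The other of the 2 was LSM1 of the same ring, at 15.0 and 13.3 FPKM in the controls and listed at 0 in both biotin libraries. It passed the filter only through the controls, so its call is a comparison with 0, which can be a failed estimate. ATR, the kinase of the replication checkpoint, rose (1.11). ERI1, the exonuclease that trims the stem-loop (-0.13), and UPF1, a helicase of mRNA decay (0.08), did not pass.

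Of 23 histone chaperones and importins, 3 fell and 1 rose (median -0.15). ASF1B, a chaperone of H3 and H4, read 30.5 and 29.2 FPKM in the controls against 154 and 112 in the biotin libraries, far above them (2.095 ± 0.22, limma adjusted p = 0.00274). Its paralogue ASF1A read 4.24 and 6.22 against 2.34 and 2.57 FPKM (-0.83 ± 0.19, limma adjusted p = 0.0289). RBBP7 and IPO5 also fell (both -0.64).

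The replication-independent variants, most of which have ordinary polyadenylated mRNAs and are made outside S phase too, moved in both directions: of 10 tested, 2 fell and 2 rose (median -0.28). H3-3B, which encodes the variant H3.3, read 33.0 and 40.7 FPKM in control and 122 and 124 in biotin libraries (1.72 ± 0.20, limma adjusted p = 0.00365). MACROH2A1 rose (1.22) while MACROH2A2 fell (-0.70). H2AX, the variant phosphorylated at DNA breaks, whose mRNA can end at a stem-loop or a poly(A) site, read 69.0 and 120 against 41.0 and 34.1 FPKM (-1.26 ± 0.30, limma adjusted p = 0.0307). H2AZ1 did not pass (-0.06), and H3-3A was listed at 0 in all 4 libraries.

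Of 20 S-phase genes with polyadenylated mRNAs, 4 fell and 4 rose (median -0.19). Their main transcripts were 1180 nt (GINS2) to 5439 nt (POLA1) long, longer than most members, and the part of this difference was not tested. MCM3, of the replicative helicase, rose from 15.2 and 14.2 to 60.1 and 52.1 FPKM (1.86 ± 0.18, limma adjusted p = 0.00205), with MCM7 (0.92), RRM2 (0.82) and CDC6 (0.79). DUT (-0.98), TYMS (-0.75), UNG (-0.71) and PRIM1 (-0.62) fell. The share of lower genes in each of these lists is a description, and its difference from the share among the histone genes was not tested. Of the genes of these lists that passed, LSM1 left aside, MCM3 and H3-3B kept their calls in 3 of the 4 fits that left out a library, ASF1B and SNRPG in 2, and the others in 1 or none.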

How the data were processed

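RNA recovered on streptavidin beads was measured by TruSeq Stranded Total RNA sequencing (single reads of 50 bases, HiSeq2000) in 2 control and 2 biotin libraries, per the labels' protocols. The submitters' processing notes name build hg38 and the tools TopHat2 2.0.9, Cufflinks 2.1.1, Cuffdiff, cutadapt and FastQC 0.10.1, with no settings. The annotation and strand handling are not given in those sources. The authors deposited, per the file headers, a table per library with the FPKM of 53209 transcript rows, its confidence interval, the coverage signal (used here only to estimate depth) and the transcript length.

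RefSeq accessions were mapped to symbols (97.2% of 47305) with the RefSeq table of GRCh38.p14 and GENCODE 29, and FPKM was summed per gene. The 29 genes with a failed or excess-data row and short structured RNA genes were left out of the tests. Genes that reached an FPKM of 1 in 2 or more libraries entered a fit with limma 3.58.1 (R 4.3.3), two-sided, with a variance trend. It used log2(FPKM + 1) and Benjamini-Hochberg adjustment over all 9939 genes (threshold 0.05, residual df 2, prior df 4.21). A fold change on this scale understates that of low genes. The fit was tested on simulated data. Tables and figures used Python 3.11.15, pandas 2.3.3, numpy 2.4.6 and matplotlib 3.10.9.

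The series design describes 2 biological replicates. The p-values set a change against the spread between these samples, with the variance of each gene moderated by that of other genes of similar level. No raw counts were used, so no counting intervals are given. The members, gene lists and tests were chosen with earlier results of these data known. The named genes were every tested member, members below the filter, members with more than 1 row, up to 6 called genes of each other list, and 10 genes named whether called or not. Alternatives were other pseudocounts, filters and scalings, no variance trend, short RNA genes kept, single rows, a replicate block, each library left out, class and cluster sums without their highest member and, added after seeing the data, interval midpoints, the mean of the deposited interval bounds (0 where the FPKM was 0), summed per gene.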

Additional observations from a re-analysis of the deposited data

How the results depend on the processing

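The count of 44 lower members was 36 to 45 under pseudocounts of 0.1 and 5, a mean FPKM of at least 5 and 3 scalings. That range also covers no variance trend, short RNA genes kept, the replicate block and interval midpoints. Of all tested genes, 5.44% (replicate block) to 17.5% (mean FPKM of at least 5) were lower in these settings, beside 9.34% in the main fit. The count of lower members was 26 with no filter and 25 from single rows, and 10 to 35 with a library left out. Of all features, 1.40% of 16119 genes were lower with no filter and 1.18% of 12005 single rows. The cause of the smaller counts was not tested. The count of 1 higher member was 2 with quantile normalization, 0 with no filter, midpoints or short RNA genes kept (limma unadjusted p below 0.05 for 1, 2 and 1 members, respectively) and 0 to 1 with a library left out. Of all genes, 226 were lower and 651 higher with no filter, and 32 to 220 lower and 193 to 678 higher with a library left out. Of single histone rows, 25 were lower. That count was 0 with no filter (limma unadjusted p below 0.05 for 39) and 16 with short RNA genes kept. Higher rows are not counted here, since the spliced row of H2BC5, listed at 0 in both controls, passed the filter only through the biotin group.

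With the replicate number as a block, 40 members were lower and 2 higher, 541 of all genes were lower, and no histone row was lower or higher (limma unadjusted p below 0.05 for 43 and 3). The numbers were not taken as pairing samples, since the deviations of same-numbered libraries correlated at 0.0184.

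Quantile normalization moved the log2 ratio of the class sums from -1.94 to -1.45 (H1), -1.27 to -0.58 (H2A), -1.65 to -1.35 (H2B), -1.18 to -0.50 (H3) and -1.90 to -1.64 (H4), and of the cluster sums from -1.74 to -1.08 (HIST2), -1.14 to -0.51 (distal) and -1.69 to -1.18 (proximal). The H2B ratio was -1.74 with upper-quartile and -1.58 with median-of-ratios scaling. Without its highest member the ratio was -1.57 for H2B, -1.72 for H4 and -1.83 for the proximal group. Midpoints gave -1.58 (H2A), -1.55 (H3), -1.80 (H4) and -1.51 (distal). With a library left out, ratios stayed within -2.09 to -1.80 (H1), -1.38 to -1.15 (H2A), -1.66 to -1.65 (H2B), -1.39 to -0.997 (H3) and -1.97 to -1.84 (H4). H2AC17 turned to 0.81 with quantile normalization. The cause of these shifts was not tested. With 2 libraries a group, the number of libraries limits which calls hold.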
